A study of Mus musculus with 6 samples.

Results

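The 10 genes described here encode integrin subunits of myeloid cells: Itgb2 and its alpha partners Itgal, Itgam and Itgax, the alphaV chain Itgav with its beta partners Itgb5 and Itgb3, and Itgb1 with its alpha partners Itga4 and Itga6. They were chosen by gene symbol, and all 10 are among the 55291 genes of the deposited table. Messenger RNA was sequenced from tumour-associated macrophages (TAM) of mouse hepatocellular carcinoma, with 3 libraries labelled TREM2+ and 3 labelled TREM2-. TREM2 is a lipid-sensing surface receptor of macrophages. The labels give no genotype, strain, age, tumour model or sorting gate for either group, nor the number of animals behind the replicates. P-values therefore measure the spread between these libraries, which may be technical.

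Integrins are surface receptors made of 1 alpha and 1 beta chain, and a chain reaches the surface only with a partner. Talin and kindlin binding to the beta tail turns them to the high-affinity form, after which leukocytes arrest on endothelium, crawl through matrix and grip particles that they engulf. In macrophages the beta2 integrins bind ICAMs and complement fragments, alphaV integrins bind RGD proteins such as vitronectin, osteopontin and Mfge8, and beta1 integrins bind VCAM-1, fibronectin and laminins.

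None of the 10 subunits passed the test between TREM2+ and TREM2- libraries. The largest difference was that of Itgb5, at 124 ± 59.6 TPM (a length-scaled transcript level, each library rescaled to 1000000) in TREM2+ libraries and 61.7 ± 10.2 TPM in TREM2- libraries (SD, n = 3 each). Of the related genes, the integrin chain Itga9 and the integrin ligands Vcam1 and Spp1 rose in TREM2+ libraries, as did the tetraspanin Cd81, which sits beside integrins in the membrane. Counts were 0 of 10 subunits at an adjusted p under 0.05 in limma (Benjamini-Hochberg over all genes tested), against a background of 2.42% of the 13788 genes tested (2.05% higher, 0.370% lower). Tested genes were those that reached a TPM of 1 in 3 or more libraries. At an unadjusted p under 0.05 the count was 1, Itgb5, against 12.8% of all genes. The 18 other settings tried, limma's voom on recovered reads among them, also called 0 of the subunits that they tested; 1 of them, without both libraries numbered 3, called 0 of all its 12571 genes and so could show nothing about the subunits.

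Reads recovered from the deposited values came to between 11493465 and 19929829 per library. Trem2 itself, which checks the labels, stood at 37.0 ± 5.51 TPM in TREM2+ libraries and 19.5 ± 2.28 TPM in TREM2- libraries, with an adjusted p of 0.0855 in limma. Macrophage markers were abundant in both groups, with summed levels of 47590 to 61742 TPM in TREM2+ libraries and 67138 to 83423 TPM in TREM2- libraries. Most of each sum was Lyz2, lower without overlap at 28340 to 37300 TPM in TREM2+ libraries against 55340 to 70510 TPM in TREM2- libraries, but not called. Of the 12 markers 4 rose, the complement genes C1qa, C1qb and C1qc among them, and 0 fell, against 2.05% and 0.370% of all genes tested. Adgre1, Csf1r, Tyrobp and Cd14 overlapped between the groups. Neutrophil markers were also abundant, at 15997 to 19959 TPM and at 18401 to 22905 TPM (TREM2+ and TREM2- libraries), and the part of neutrophils in the integrin levels was not tested. Fewer cells of a type and less RNA per cell cannot be told apart in such libraries. TREM2- replicate 1 stood apart: 52% of all genes tested had their highest TPM there, and so did 6 of the 10 subunits, namely Itgb2, Itgal, Itgav, Itgb3, Itgb1 and Itga4. It was also at the ends of the composition, with 12.3% of its TPM in mitochondrial transcripts, against 2.42% to 10.02% in the other libraries, and 0.427% in a family of repeat transcripts, against 0.704% to 24.6%. TREM2+ replicate 1 was next to it at both ends, at 10.02% and 0.704%, so this composition was not particular to TREM2- replicate 1. The part of composition in the values of TREM2- replicate 1 was not tested. Among markers of liver-resident cells, 8 of 9 Kupffer cell markers and 13 of 14 endothelial markers rose in TREM2+ libraries. The share over all genes tested was 2.05% higher. The endothelial markers Cdh5, Tek, Tie1 and Ptprb were below 1 TPM in every TREM2- library, as were Kdr in replicates 2 and 3 and Stab2 in replicate 3. They passed the filter on low values through the TREM2+ libraries, where they were high, so their calls support nothing further.

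**Figure D1:**
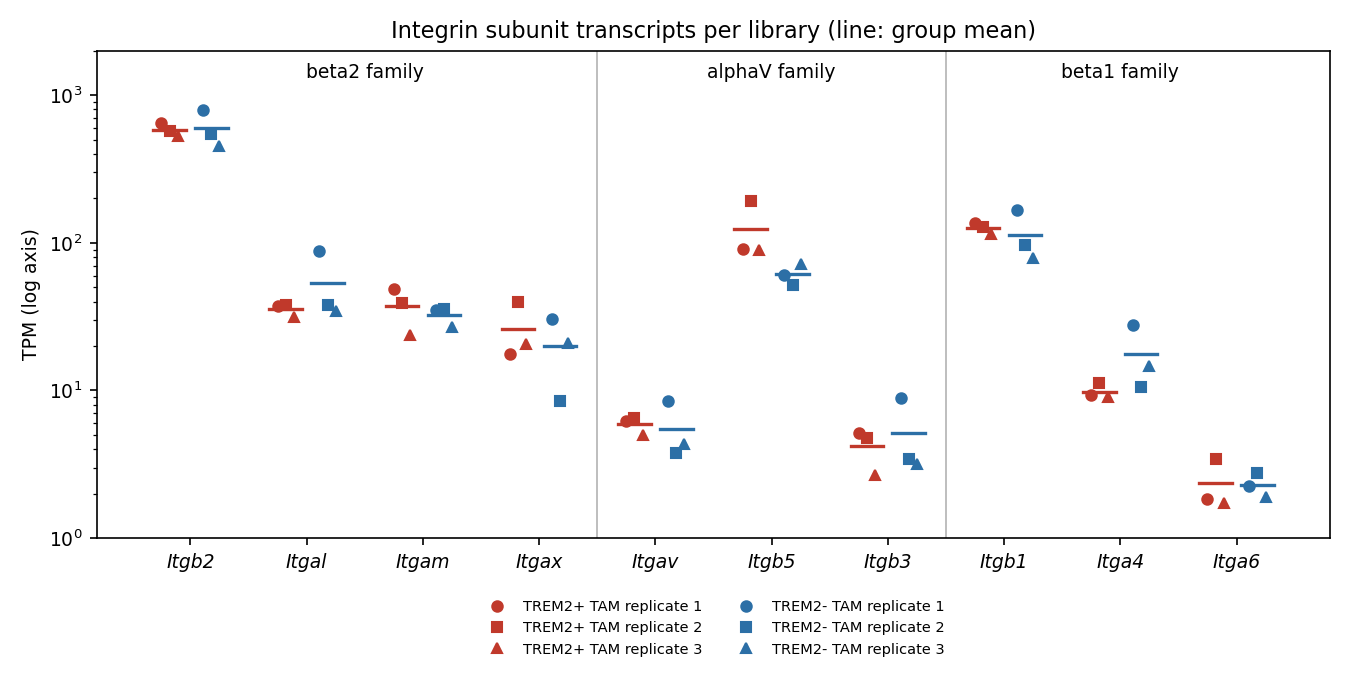
TPM of each integrin subunit on a log axis in the 3 TREM2+ libraries (red, left of each pair) and the 3 TREM2- libraries (blue, right); each symbol is 1 library and the line is the group mean. Itgb2 lies above all other subunits in every library, and Itgb5 is the only subunit whose 3 TREM2+ values, from 89.3 TPM, all lie above its TREM2- values, up to 72.3 TPM.

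Levels spanned a wide range, and their order was much the same in all 6 libraries. Itgb2, the chain shared by all leukocyte-specific beta2 integrins, averaged 590.02 TPM over the 6 libraries, and its lowest value of 455 TPM was above the highest value of any other subunit. Itgb1 (120 TPM on average) and Itgb5 (92.9 TPM) came next, and their ranges over the libraries overlapped. In TREM2- replicate 1 Itgb5, at 60.8 TPM, was below Itgal, at 87.5 TPM. Itgal (44.5 TPM), Itgam (34.9 TPM) and Itgax (23.04 TPM) also overlapped in range and changed places between libraries, and the range of Itgax reached down into that of Itga4 (13.7 TPM). Itgav (5.71 TPM) and Itgb3 (4.67 TPM) followed and overlapped with each other. Itga6 was the lowest in every library, at 1.74 to 3.45 TPM. Itgb2, Itgb5 and Itgb1 were each above their alpha partners on average, whereas Itgb3 was not above Itgav. Itgal, Itgam and Itgax together came to 14.2% to 20.6% of the Itgb2 level in TREM2+ libraries and to 15.01% to 19.3% in TREM2- libraries. Itgav came to 3.29% to 6.47% of Itgb5 and Itgb3 together in TREM2+ libraries and to 5.77% to 12.1% in TREM2- libraries. Itga4 and Itga6 together came to 8.22% to 11.5% of Itgb1 in TREM2+ libraries and to 13.8% to 20.997% in TREM2- libraries, without overlap; these 3 shares were added after the values had been seen and were not tested.

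Of the beta2 family, Itgb2 (chromosome 10, 77530252 to 77565708, mm10) encodes the common beta chain, also called CD18. It stood at 644, 568 and 533 TPM in TREM2+ replicates 1, 2 and 3, against 792, 549 and 455 TPM in TREM2- replicates 1, 2 and 3. The groups overlapped, with the highest and the lowest value both in TREM2- libraries. The fold change was 0.995 (95% interval 0.666 to 1.48, limma on log2(TPM + 1)). Its sign turned under median-of-ratios scaling.

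Itgal (chromosome 7, 127296260 to 127335138) encodes CD11a, which with Itgb2 forms LFA-1, the ICAM receptor of lymphocytes and other leukocytes. It stood at 37.6, 38.1 and 31.4 TPM in TREM2+ replicates 1 to 3, against 87.5, 38.2 and 34.4 TPM in TREM2- replicates 1 to 3. TREM2- replicate 1 was far above the other libraries, which lay between 31.4 and 38.2 TPM. The log2 fold change was -0.44 ± 0.34 (SE, limma) and was -0.03 without that library. Summed T and NK cell markers, of cells rich in LFA-1, were 1215 to 1319 TPM in TREM2+ libraries. In TREM2- libraries the sum was 1828 to 4373 TPM, highest in replicate 1. Its largest part was Nkg7, at 579 to 717 TPM in TREM2+ libraries against 1028 to 2342 TPM. Nkg7, Cd3d, Cd3g, Cd2, Gzma and Prf1 were lower in TREM2+ libraries without overlap, and Il7r was higher without overlap. The other markers of the list, Cd3e, Trbc2, Cd8a, Cd4, Ncr1, Klrb1c and Thy1, overlapped between the groups. Of the 14 markers tested 0 passed, and their part in the Itgal values was not tested.

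Itgam and Itgax lie side by side on chromosome 7, on the same strand and 11055 bases apart. Itgam (128062640 to 128118491) encodes CD11b, which with Itgb2 forms Mac-1 or complement receptor 3, the receptor for iC3b and fibrinogen on macrophages, monocytes and neutrophils. Itgax (128129547 to 128150657) encodes CD11c, the alpha chain of complement receptor 4, used as a marker of dendritic cells and of some tissue macrophages. The RefSeq promoter windows of both, 250 bases before to 50 after the start on GRCm38.p6, plus strand, are shown with that of Itgb5, the subunit with the largest difference: chr7:128062390-128062689 for Itgam, chr7:128129300-128129599 for Itgax and chr16:33829415-33829714 for Itgb5. RefSeq windows were found for 6 of the 10 subunits. Capitals mark the hexamer GAGGAA or, on the other strand, TTCCTC, a core of sites for the myeloid factor PU.1, which in human drives the CD11b promoter; the hexamers do not overlap one another.
Itgam: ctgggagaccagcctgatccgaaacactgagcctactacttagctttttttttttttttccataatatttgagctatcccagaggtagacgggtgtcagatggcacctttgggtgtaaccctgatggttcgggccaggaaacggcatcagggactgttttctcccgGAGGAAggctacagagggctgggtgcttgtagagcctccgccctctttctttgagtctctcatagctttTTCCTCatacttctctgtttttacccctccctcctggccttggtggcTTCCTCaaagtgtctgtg
Itgax: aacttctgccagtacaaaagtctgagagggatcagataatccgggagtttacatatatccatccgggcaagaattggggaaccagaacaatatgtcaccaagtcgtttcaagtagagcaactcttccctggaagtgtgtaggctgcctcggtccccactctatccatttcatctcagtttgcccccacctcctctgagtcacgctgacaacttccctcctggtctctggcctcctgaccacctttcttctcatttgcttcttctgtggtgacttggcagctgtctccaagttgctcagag
Itgb5: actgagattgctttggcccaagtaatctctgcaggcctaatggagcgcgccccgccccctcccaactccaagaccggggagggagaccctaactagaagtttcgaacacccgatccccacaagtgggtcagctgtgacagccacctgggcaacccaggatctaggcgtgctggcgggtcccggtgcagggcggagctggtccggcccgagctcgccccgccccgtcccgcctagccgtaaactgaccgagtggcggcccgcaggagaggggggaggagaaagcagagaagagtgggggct
The hexamer occurred 3 times in the Itgam window and 0 times in the windows of Itgax and Itgb5, and it occurred on either strand in 28.3% of all 32851 promoter windows of that length. The Itgb5 window held 20 CpG dinucleotides, against 6 for Itgam and 5 for Itgax and a median of 7 over all windows. Of the subunit windows not shown, those of Itgb1, Itgav and Itga4 held 27, 24 and 10 CpG dinucleotides and 1, 2 and 0 hexamers. The windows are a description of letters, and no binding was measured.

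Itgam stood at 49.0, 38.8 and 23.7 TPM in TREM2+ replicates 1 to 3, against 35.1, 35.7 and 26.8 TPM in TREM2- replicates 1 to 3. The TREM2+ libraries held both the highest and the lowest value. The fold change was 1.10 (95% interval 0.698 to 1.74), and the sign turned without TREM2+ replicate 1 (log2 fold change -0.09). The level of Itgam against the other subunits is uncertain: in GENCODE M21, 3450 of its 5024 exon bases are shared with the same-strand locus Gm49368, which was at 0.081 to 0.38 TPM, and how reads in shared exons were counted is not given in the sources used here.

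Itgax stood at 17.7, 39.98 and 20.8 TPM in TREM2+ replicates 1 to 3, against 30.3, 8.52 and 21.03 TPM in TREM2- replicates 1 to 3. The groups overlapped, with TREM2+ replicate 2 highest and TREM2- replicate 2 lowest. The log2 fold change was 0.45 ± 0.46 (SE, limma), the widest error of the 10 subunits, and -0.04 without TREM2- replicate 2. The ratio of Itgax to Itgam was 0.362, 1.03 and 0.876 in TREM2+ replicates 1 to 3, and 0.861, 0.238 and 0.786 in TREM2- replicates 1 to 3. Of 11 dendritic cell markers 1 rose (Cadm1) and 1 fell (Ccr7), their sum was 113 to 147 TPM in TREM2+ libraries against 134 to 322 TPM in TREM2- libraries, and their part in the Itgax values was not tested.

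Of the alphaV family, Itgav (chromosome 2, 83724397 to 83806916) encodes the alpha chain of the vitronectin receptors, which also bind osteopontin and latent TGF-beta. It stood at 6.17, 6.502 and 5.03 TPM in TREM2+ replicates 1 to 3, against 8.45, 3.77 and 4.35 TPM in TREM2- replicates 1 to 3. The TREM2+ values lay between those of TREM2- replicate 1 and of the other two TREM2- libraries. The fold change was 1.10 (95% interval 0.691 to 1.76).

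Itgb5 (chromosome 16, 33829665 to 33949338) encodes the beta chain of alphaVbeta5, a receptor through which phagocytes take up apoptotic cells bridged by Mfge8. It stood at 90.3, 193 and 89.3 TPM in TREM2+ replicates 1 to 3, against 60.8, 52.0 and 72.3 TPM in TREM2- replicates 1 to 3. The groups did not overlap, which was so for 1 of the 10 subunits and for 16.7% of all genes tested (9.07% higher, 7.62% lower). TREM2+ replicate 2 was far above the other TREM2+ libraries, which were close to each other. The log2 fold change was 0.91 ± 0.32 (SE), a 1.88-fold difference with a 95% interval of 1.14 to 3.12, and the adjusted p was 0.252 in limma. Over the 18 other settings the log2 fold change lay between 0.55, without TREM2+ replicate 2, and 1.22, without both libraries numbered 3, and the adjusted p was never below 0.0658 in limma, the value with library weights.

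Itgb3 (chromosome 11, 104608000 to 104670476) encodes the beta chain that alphaV shares with the platelet fibrinogen receptor, where its partner is Itga2b. It stood at 5.12, 4.78 and 2.67 TPM in TREM2+ replicates 1 to 3, against 8.86, 3.41 and 3.19 TPM in TREM2- replicates 1 to 3. The groups overlapped, and the log2 fold change of -0.16 ± 0.38 (SE, limma) became 0.24 without TREM2- replicate 1. Itga2b was 4.7 ± 2.25 TPM in TREM2+ libraries and 5.85 ± 2.47 TPM in TREM2- libraries. Of the 8 platelet and megakaryocyte markers tested 2 rose, Pf4 and Clec1b, while Gp9 and Itga2b did not pass and Gp1bb was listed at 0 in 5 of the 6 libraries. Itgb5 exceeded Itgb3 in every library, 17.6-, 40.4- and 33.5-fold in TREM2+ replicates 1 to 3 and 6.86-, 15.2- and 22.7-fold in TREM2- replicates 1 to 3, with overlap.

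Of the beta1 family, Itgb1 (chromosome 8, 128685654 to 128733200) encodes the beta chain with the most alpha partners, found on nearly all cells. It stood at 136, 128 and 114 TPM in TREM2+ replicates 1 to 3, against 166, 96.1 and 78.8 TPM in TREM2- replicates 1 to 3. The TREM2+ libraries were tightly grouped, and TREM2- libraries lay on both sides of them. The fold change was 1.16 (95% interval 0.737 to 1.83). Relative to Itgb2 in the same library, Itgb1 was 0.211, 0.225 and 0.215 in TREM2+ replicates 1 to 3 and 0.2103, 0.175 and 0.173 in TREM2- replicates 1 to 3, which is the only one of 6 ratios without overlap, by a narrow margin.

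Itga4 (chromosome 2, 79255426 to 79333123) encodes the chain that pairs with Itgb1 as VLA-4, the VCAM-1 and fibronectin receptor of monocytes and lymphocytes, or with Itgb7. It stood at 9.32, 11.2 and 8.96 TPM in TREM2+ replicates 1 to 3, against 27.6, 10.5 and 14.7 TPM in TREM2- replicates 1 to 3. TREM2- replicate 1 was the highest by far, and TREM2+ replicate 2 lay above TREM2- replicate 2. The log2 fold change of -0.68 ± 0.33 (SE) was the lowest of the 10, with an adjusted p of 0.463 in limma, and was -0.32 without TREM2- replicate 1. On the opposite strand, exons of Cerkl share 8.04% of the Itga4 exon bases; Cerkl was at 0.717 to 1.63 TPM.

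Itga6 (chromosome 2, 71745616 to 71858416) encodes a laminin receptor chain. It stood at 1.84, 3.45 and 1.74 TPM in TREM2+ replicates 1 to 3, against 2.25, 2.74 and 1.89 TPM in TREM2- replicates 1 to 3. The TREM2+ libraries held both extremes, and the fold change was 0.996 (95% interval 0.642 to 1.55), with a sign that turned under median-of-ratios scaling and quantile normalization. Its values did not come out as whole reads on the annotation used here, so its depth is not given.

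**Figure D2:**
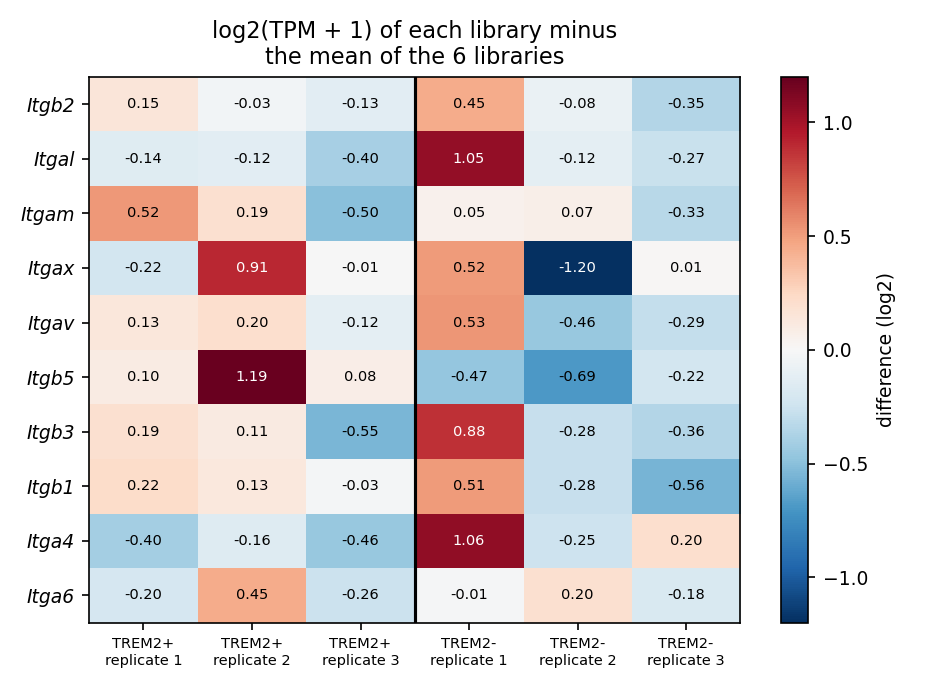
Difference of log2(TPM + 1) in each library from the mean of the 6 libraries for the same subunit, with TREM2+ libraries left of the black line and TREM2- libraries right of it. The column of TREM2- replicate 1 holds the highest value of 6 subunits, reaching 1.06 for Itga4 and 1.05 for Itgal, while Itgb5 and Itgax are highest in TREM2+ replicate 2, at 1.19 and 0.91.

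Because TREM2- replicate 1 carried the highest value of 6 subunits, the comparison was also read without it. The log2 fold changes of Itgb1 and Itgav then were 0.52 and 0.44, and with Itgb5 they made 3 of 10 subunits whose TREM2+ values all lay above the TREM2- values, against 20.0% of all genes tested, with 0 subunits and 9.02% of genes all lower. None of the 10 passed, with adjusted p-values in limma of 0.3 for Itgb1, 0.417 for Itgav and 0.358 for Itgb5. The 95% intervals of the fold changes in all 6 libraries ran from 0.372, the lower end for Itga4, to 3.12, the upper end for Itgb5. A log2 fold change above 0 was found for 5 of 10 subunits, and the median of the 10 was 0.07, against -0.09 over all genes tested.

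Of 6 within-library ratios, which do not depend on how libraries are scaled, none passed. The exact permutation test over the libraries, two-sided, gave p = 0.1 for Itgb1 over Itgb2, the smallest p that 3 against 3 libraries allow, and p = 0.2 to p = 0.5 for the others, with adjusted values of 0.45 to 0.5. The log2 ratio of Itgb5 to Itgb3 was 4.85 ± 0.63 in TREM2+ libraries and 3.74 ± 0.88 in TREM2- libraries, and that of Itga6 to Itga4 was -2.13 ± 0.38 and -2.84 ± 0.85. That of Itgal to Itgam was -0.00122 ± 0.40 in TREM2+ libraries and 0.59 ± 0.64 in TREM2- libraries, and that of Itgav to Itgb2 was -6.63 ± 0.15 and -6.81 ± 0.33 (SD, n = 3 each).

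The other integrin chains filled in the partners. Of 18 further genes of the family 7 passed the filter on low values, 1 rose and 0 fell. Itga9, which pairs with Itgb1 and binds VCAM-1 and osteopontin, stood at 9.02, 14.1 and 8.40 TPM in TREM2+ replicates 1 to 3, against 1.84, 1.27 and 2.32 TPM in TREM2- replicates 1 to 3. All TREM2+ values were above all TREM2- values, with a log2 fold change of 2.02 ± 0.28 (SE) and an adjusted p of 0.00838 in limma. It passed in each of the 6 fits with 1 library removed, but not with a replicate block. Itgb7, the beta chain that competes with Itgb1 for Itga4, stood at 138, 128 and 113 TPM in TREM2+ replicates 1 to 3, against 402, 215 and 182 TPM in TREM2- replicates 1 to 3. The groups did not overlap, the log2 fold change was -0.99 ± 0.30 (SE), and the adjusted p was 0.18 in limma, although voom on recovered reads gave 0.026. Itgb2l, a homologue of Itgb2, had a log2 fold change of -1.04 ± 0.31 and Itgae, which pairs with Itgb7 as CD103, of -0.79 ± 0.32, without passing (adjusted p = 0.154 and adjusted p = 0.332 in limma). Itga5, the fibronectin receptor chain, was 25.6 ± 6.08 TPM in TREM2+ libraries and 23.9 ± 6.9 TPM in TREM2- libraries. The 11 chains that did not pass the filter included Itgad, another alpha partner of Itgb2, at 0.115 to 0.672 TPM.

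**Figure D3:**
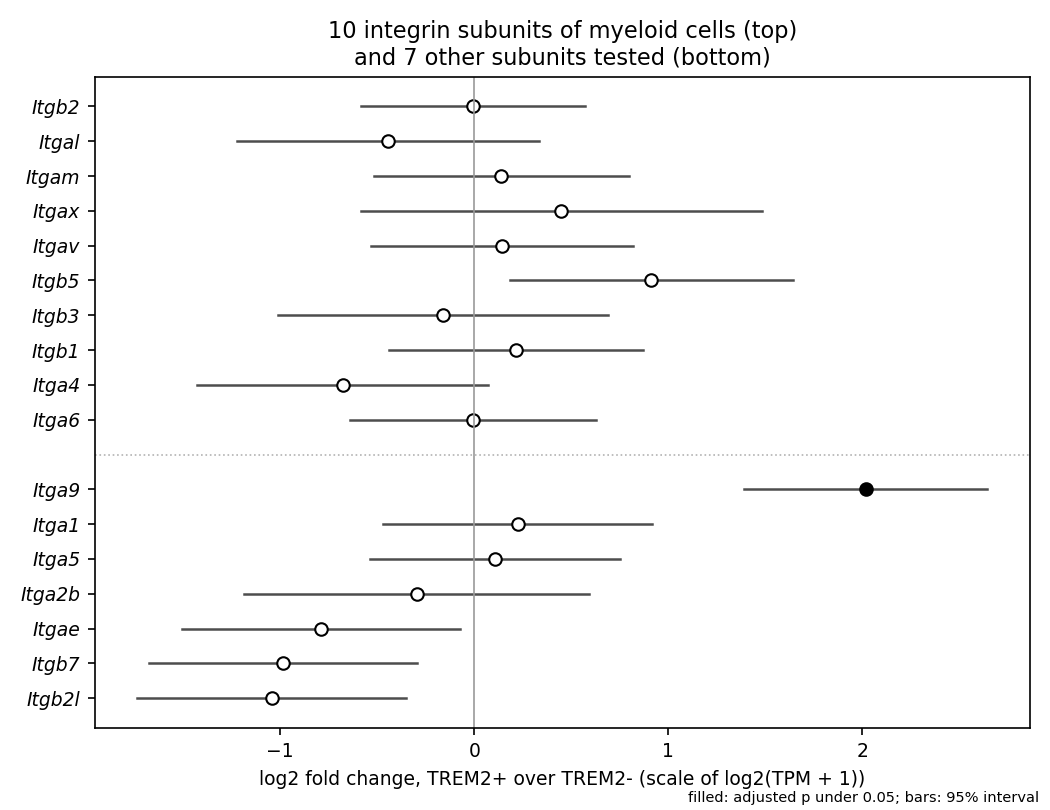
Log2 fold change (TREM2+ over TREM2-, limma on log2(TPM + 1)) with its 95% interval for the 10 subunits (top) and for the 7 other integrin chains that passed the filter on low values (bottom); a filled point has an adjusted p under 0.05. Itga9 at 2.02 is the only filled point, and among the 10 subunits the interval of Itgb5 alone lies wholly above 0.

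Calls in the lists that follow stand against 2.05% of all genes tested higher and 0.370% lower. Of 7 beta1 ligands tested 1 rose and 0 fell, with a median log2 fold change of 0.72. It was Vcam1, the endothelial and macrophage adhesion molecule bound by VLA-4, at 71.3, 84.96 and 67.0 TPM in TREM2+ replicates 1 to 3, against 6.93, 12.9 and 19.4 TPM in TREM2- replicates 1 to 3. The groups lay far apart, with a log2 fold change of 2.52 ± 0.33 (SE, adjusted p = 0.00749 in limma). The type IV collagen chains Col4a1 (0.85 ± 0.26) and Col4a2 (0.76 ± 0.27) and the basement membrane linker Nid1 (0.72 ± 0.33) did not pass. Col4a2 was at 0.74 ± 0.15 TPM in TREM2- libraries (SD, n = 3), so it was tested through the TREM2+ libraries, where it was high. The median of 0.72 rests partly on such low genes and was 0.20 with no filter. Of 13 alphaV ligands 2 rose and 0 fell, with a median of 0.65. Spp1, which encodes osteopontin, stood at 1893, 1926 and 1919 TPM in TREM2+ replicates 1 to 3, against 605, 794 and 498 TPM in TREM2- replicates 1 to 3, a log2 fold change of 1.62 ± 0.24 (SE, adjusted p = 0.0104 in limma). Lrrc32, which holds latent TGF-beta at the cell surface for alphaV integrins, was 3.76 ± 0.56 TPM in TREM2+ libraries and 0.67 ± 0.67 TPM in TREM2- libraries (SD, n = 3 each), a log2 fold change of 1.57 ± 0.32 (SE, adjusted p = 0.0395 in limma). In TREM2- libraries it reached a TPM of 1 only in replicate 1, so it passed the filter on low values through the TREM2+ libraries, where it was high, and its call supports nothing further. Nrros, which holds latent TGF-beta on myeloid cells, stood at 150 ± 32.7 TPM in TREM2+ libraries and 237 ± 54.8 TPM in TREM2- libraries (adjusted p = 0.324 in limma). The growth factor gene Tgfb3 (1.48 ± 0.40) and Pecam1 (1.09 ± 0.36) did not pass either. Of 10 genes in the list of beta2 ligands 1 rose and 0 fell, with a median of 0.16. It was the junction molecule Jam2, whose known integrin partner is VLA-4 and not a beta2 integrin, so that 0 of the beta2 ligands proper passed. Jam2 stood at 6.04 ± 1.12 TPM in TREM2+ libraries and 1.08 ± 0.374 TPM in TREM2- libraries (log2 fold change 1.76 ± 0.26, adjusted p = 0.01003 in limma). In TREM2- libraries it was at 1.48, 1.02 and 0.746 TPM in replicates 1 to 3. Jam2 therefore passed the filter on low values through the TREM2+ libraries, where it was high, and its call supports nothing further. The main ligand Icam1 was 74.2 ± 10.3 TPM in TREM2+ libraries and 67.8 ± 26.3 TPM in TREM2- libraries. The fibrinogen chains, C3 and Thy1 did not pass.

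All 6 called genes, Vcam1, Itga9, Jam2, Lrrc32, Spp1 and Cd81, were called for being higher in TREM2+ libraries. The same direction in cell markers was therefore no separate link to a cell type. Summed endothelial markers stood at 316 to 443 TPM in TREM2+ libraries and at 26.6 to 50.6 TPM in TREM2- libraries. Summed Kupffer cell markers stood at 1272 to 2288 TPM and at 248 to 403 TPM. Summed hepatocyte markers overlapped, at 1219 to 1548 TPM in TREM2+ libraries and at 600 to 1272 TPM in TREM2- libraries. The largest part was Trf, higher without overlap at 1020 to 1308 TPM in TREM2+ libraries against 482.5 to 556.2 TPM in TREM2- libraries. The other hepatocyte markers overlapped between the groups, and all but Afp were highest in TREM2- replicate 1. Summed stellate cell and fibroblast markers also overlapped, at 18.5 to 21.9 TPM and at 17.9 to 32.7 TPM. The part of these cells in the 6 genes was not tested. Vcam1 passed in each of the 6 fits with 1 library removed, Spp1 and Jam2 in 5, each without a call when TREM2- replicate 3 was left out, and Lrrc32 in 2.

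Among membrane partners of integrins, 1 of 14 rose and 0 fell, with a median log2 fold change of 0.42. Cd81 stood at 304, 330 and 331 TPM in TREM2+ replicates 1 to 3, against 84.4, 76.3 and 89.1 TPM in TREM2- replicates 1 to 3, a log2 fold change of 1.94 ± 0.19 (adjusted p = 0.0040 in limma) that passed in each of the 6 fits with 1 library removed. The matrix receptor Sdc4 (2.01 ± 0.46), the tetraspanin Cd63 (0.86 ± 0.21) and the amino acid transporter chain Slc3a2 (0.74 ± 0.22), also known as CD98, did not pass (adjusted p = 0.0644, adjusted p = 0.0841 and adjusted p = 0.163 in limma). The intracellular machinery showed no calls. Of 21 activation and adaptor genes 0 passed, and 4 were at an unadjusted p under 0.05: Cyth1, a guanine nucleotide exchange factor that binds the Itgb2 tail (0.65 ± 0.22), the kindlin Fermt2 (0.68 ± 0.23), the RAP1 effector Rassf5 (-0.66 ± 0.25) and Lims1 (-0.62 ± 0.25). The share at that threshold over all genes was 12.8%. Of 16 proximal signalling genes 0 passed, and 2 were at an unadjusted p under 0.05, the Src family kinase Fgr (-0.75 ± 0.27) and the phospholipase Plcg2 (-0.71 ± 0.29), a share close to that of all genes. Next in order of p were the scaffold Nedd9 (-0.45 ± 0.26) and the RAC exchange factor Dock2 (-0.57 ± 0.33). The haematopoietic kindlin Fermt3 was 141 ± 20.1 TPM in TREM2+ libraries and 158 ± 28.8 TPM in TREM2- libraries, and the talin Tln1 was 28.9 ± 5.87 TPM and 37.1 ± 13.1 TPM. Voom on recovered reads called 3 of the activation genes and 1 of the signalling genes.

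**Figure D4:**
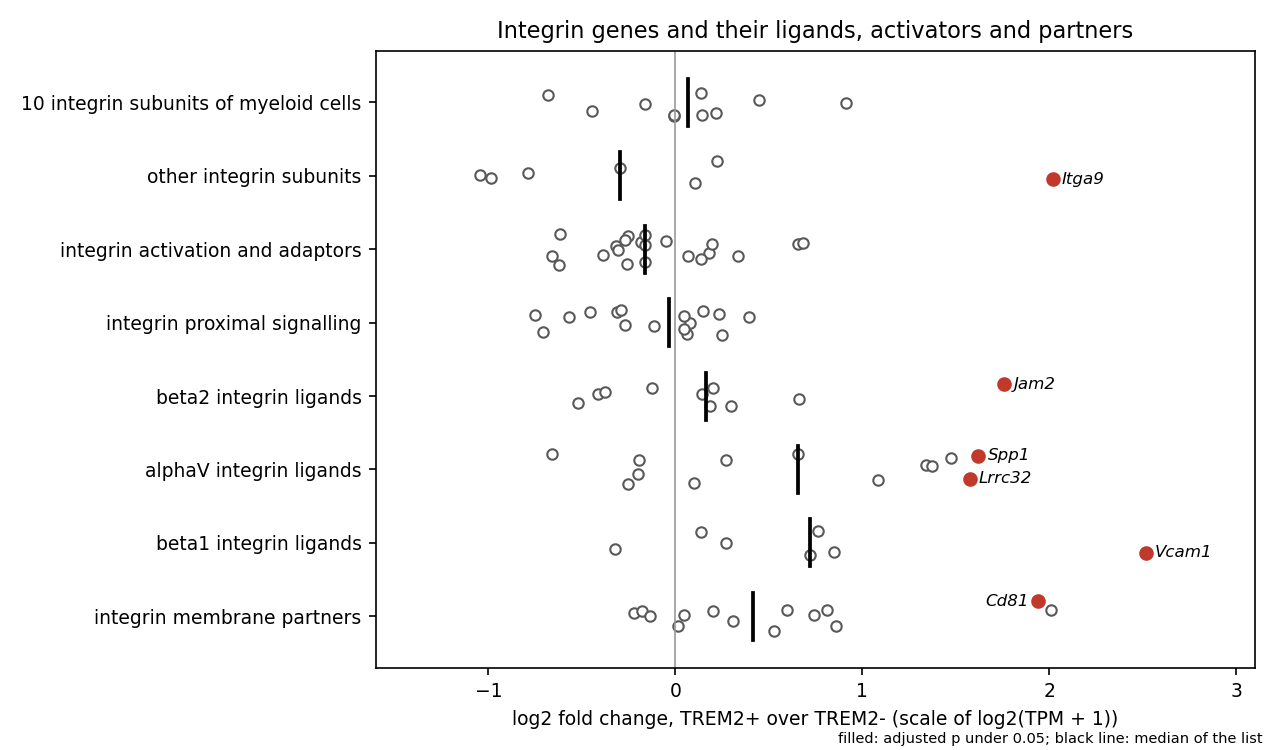
Log2 fold change (TREM2+ over TREM2-, limma on log2(TPM + 1)) of each gene tested in the 10 integrin subunits and in 7 lists of related genes; filled red points have an adjusted p under 0.05 and are named, and the black line is the median of the list. The medians of the ligand and partner lists, from 0.16 to 0.72, lie right of those of the subunits (0.07), the activation genes (-0.16) and the signalling genes (-0.03), but that of the beta2 list lay below 0 when TREM2+ replicate 1 (-0.082), TREM2- replicate 2 (-0.21) or TREM2- replicate 3 (-0.11) was removed. The median of the alphaV list was 0.29 without TREM2+ replicate 1. Medians also moved with the filter on low values. With no filter they were 0.076 for the alphaV list and 0.20 for the beta1 list, against 0.067 for the subunits. At a TPM of at least 5 the beta1 list held 3 genes, with a median of 0.27.

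The genes whose log2(TPM + 1) followed a subunit most closely were sought among 7418 named genes with a mean TPM of at least 5. For Itgb5 they were Hbegf (Pearson r = 0.991), Ntpcr (r = 0.987) and Klrb1b (r = 0.973). For Itgal they were Dcaf12 (r = 0.999), Trbj1-7 (r = 0.996) and Ino80c (r = 0.995), and for Itgam they were Slc38a2 (r = 0.991), Lpxn (r = 0.991) and Gp9 (r = 0.989). For all 10 subunits the 3 closest genes had r between 0.952 and 0.999. These are descriptions over 6 libraries, and the values of 1 library share its depth and composition. The 3 highest of 7418 correlations were taken for each subunit, so the selection alone favours high values of r.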

How the data were processed

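The deposited table holds a length-scaled signal that the authors name TPM, yet its 6 columns together, not each one, sum to 1000000. Each column was rescaled here to 1000000, which differs from the design written for TPM. The submitters' processing notes name STAR 2.7.10a, Subread, featureCounts 2.0.3 and the build mm10, without the annotation, strand setting or formula. Multiplying by GENCODE M21 exon lengths gave whole reads, within 0.01 read in all 6 libraries, for 98.7% of 36673 matched genes above 0.

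For genes that reached a TPM of 1 in 3 or more libraries, limma 3.58.1 in R 4.3.3 compared log2(TPM + 1) between the groups. The test used a trended variance and was two-sided, and p-values were adjusted by Benjamini-Hochberg over all tested genes, with 0.05 as threshold. The pseudocount understates the change of low genes. The fit and 18 alternatives were tested across all genes, after a check on simulated data. Ratios had exact permutation tests. The subunits and gene lists were chosen with earlier results of these data known. Named genes were all 10 subunits, and in each list those past the threshold or, where under 4 were, those of smallest p up to 4; other genes named were chosen after their values were seen.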

Additional observations from a re-analysis of the deposited data

How the results depend on the processing

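The count of subunits past the threshold was 0 in the fit reported and in all 18 alternatives, of which the one without both libraries numbered 3 called no gene at all. Of the fold changes of the subunits under alternatives, 158 kept their direction and side of the threshold and 19 changed sign. Itgb3 and Itga6 were left out by the filter at a TPM of at least 5, and Itga6 by voom. Itgb2 had a log2 fold change of 0.078 with median-of-ratios scaling, 0.16 with library weights and 0.069 with voom. Itga6 had 0.048 with median-of-ratios scaling, 0.028 with quantile normalization and 0.030 without both libraries numbered 3, and Itgb3 had 0.31 with library weights. Leaving out 1 library gave ranges of -0.19 to 0.21 for Itgb2, -0.23 to 0.12 for Itga6, -0.38 to 0.24 for Itgb3, -0.086 to 0.42 for Itgam, -0.038 to 0.82 for Itgax, -0.050 to 0.44 for Itgav and -0.010 to 0.52 for Itgb1. The difference in the log2 ratio of Itgax to Itgam ranged from -0.26 to 0.80. The cause was not tested.

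Counts of related genes moved between settings, and so did those of all genes, not always in the same direction. Over all genes 282 were higher and 51 lower in the fit reported. The counts were 976 and 389 with library weights, 573 and 158 with voom, and 421 and 80 with median-of-ratios scaling. They were 116 and 10 with the replicate block, and 95 and 3 of 38054 with no filter. Quantile normalization gave 396 and 121, a TPM of at least 5 gave 303 and 49, and a pseudocount of 0.1 gave 252 and 31. The deposited values gave 206 and 92, and leaving out repeat and mitochondrial transcripts gave 278 and 82. Leaving out 1 library gave 116 to 342 higher and 7 to 105 lower. AlphaV ligands counted 1 with a pseudocount of 0.1, 0 with no filter, 1 at a TPM of at least 5, 6 with library weights and 0 to 4 when 1 library was left out. Beta2 ligands counted 0 with no filter, 2 with library weights and 0 to 1 when 1 library was left out. Membrane partners counted 2 at a TPM of at least 5, 3 with median-of-ratios scaling, 3 with quantile normalization, 2 with the deposited values, 3 without repeat and mitochondrial transcripts, 5 with library weights, 4 with voom and 1 to 3 when 1 library was left out. Activation genes counted 1 with median-of-ratios scaling, 3 with quantile normalization, 1 with library weights and 3 with voom. Signalling genes counted 1 with library weights and 1 with voom. Other subunits counted 2 and beta1 ligands 3 with library weights, and again 2 and 3 with voom. Without both libraries numbered 3, other subunits, all 3 ligand lists and the partners counted 0, as did all 12571 genes tested, so that this setting says nothing about the lists.

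With the replicate number as a block, other subunits counted 0 and alphaV ligands 1. The labels do not say whether the numbers pair the libraries, and they were not taken to. Deviations of same-numbered libraries correlated at 0.188, -0.0325 and 0.224 for replicates 1, 2 and 3. TREM2+ replicates 1 and 3 correlated best with the TREM2- library of their number, and TREM2+ replicate 2 with TREM2- replicate 3. Repeat transcripts rose with the number, at 0.704%, 5.05% and 17.5% of TPM in TREM2+ replicates 1 to 3. In TREM2- replicates 1 to 3 they were 0.427%, 12.9% and 24.6%. Whether the numbers stand for a shared batch or pairing was not tested. edgeR was not run: it was planned on condition that the deposited unit allowed a count test, which a length-scaled signal does not. Voom was run on the recovered reads only as an alternative. With 3 libraries a group, the 95% intervals of most subunits include changes of 1.5-fold, and no single library can be tested as standing apart.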
